A study of Mus musculus with 68 samples.

Results

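Nodal, its co-receptor Tdgf1, its secreted antagonists Lefty1 and Lefty2 and the inhibitory mediator Smad7 were followed gene by gene through every mouse embryonic stem cell (ESC) line of the series. These 5 genes, of 55335 gene rows in each count table, were chosen by their levels across these lines as seen in earlier results of the same tables. Their differences are therefore given as values with errors and carry no test. All 5 were found in the 3 tables by Ensembl identifier, and all 5 passed the filter on low counts in every comparison.

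Nodal is a secreted ligand of the TGF-beta superfamily. It binds type I and type II Activin receptors together with the membrane-anchored co-receptor Tdgf1 (Cripto), and the activated receptors phosphorylate Smad2 and Smad3, which enter the nucleus with Smad4 and act on DNA with partners such as Foxh1. In the mouse embryo Lefty1 and Lefty2 are themselves targets of the pathway and block it outside the cell, so that the signal limits its own reach. Smad7 acts inside the cell, where it binds the receptors and directs them to degradation. In pluripotent cells this pathway is known for sustaining the epiblast state and, at higher activity, for directing cells to the primitive streak and endoderm.

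The RNA came from untreated male E14JU ESC of 129/Ola origin, grown on gelatin in serum with LIF, and 65 libraries in 3 tables were used. The rescue experiment held the clone MCM2-R#2, in which the mutations of MCM2-2A#2 were restored to wild-type sequence, the clone MCM2-2A#2 itself, and the wild-type clone WT#1, with 4 cultures each. In MCM2-2A cells MCM2, a subunit of the helicase that unwinds DNA at the replication fork, carries alanine substitutions that disable its binding of histones. The POLE4 experiment held 3 clones that lack POLE4, a histone-binding subunit of DNA polymerase epsilon (POLE4-KO#1, POLE4-KO#2 and POLE4-KO#3), and WT#1, with 3 libraries each. The clone experiment held 8 MCM2-2A clones and 7 WT clones in 39 libraries. Every line was 1 clone, so that in the rescue and POLE4 experiments a difference between lines and a difference between genotypes cannot be told apart, and the spread is that between cultures or libraries of 1 clone. The titles of the MCM2-R#2 libraries name the rescue experiment but carry another clone number than the columns of the count table, and their genotype field reads wildtype, so that their identity as MCM2-R#2 rests on the study's sample table.

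Library totals were 23161127 to 35602583 counts in the rescue experiment, 18369196 to 26975105 in the POLE4 experiment and 27854706 to 67467849 in the clone experiment, and the lowest member count in a single library was 105, for Lefty2 in WT#8. Levels are in CPM, read counts scaled to library sizes that were adjusted by TMM factors within each table. The tables were scaled separately, and the paper gives read lengths that differed by sequencer, so levels were compared only within a table. Pole4 was at 2.88 to 8.24 CPM in the POLE4-KO libraries and at 56.5 to 62.1 CPM in WT#1 of that table. Mcm2 does not check a point mutation, but its level differed by line: 213 ± 4.66 CPM in MCM2-R#2, 223 ± 7.31 CPM in MCM2-2A#2 and 420 ± 22.6 CPM in WT#1 (SD, n = 4 each). It was thus as low in the restored clone as in the mutant. In the clone experiment Mcm2 lay at 170 to 267 CPM in MCM2-2A clones and at 294 to 407 CPM in most WT clones, but at 217 CPM in WT#6 and 229 CPM in WT#8, within the MCM2-2A range. Of 26 marker genes fixed in 5 lists, the 8 ESC genes, among them Pou5f1 with 597 to 922 CPM, were present in all libraries, and the 6 primitive endoderm genes together summed to at most 53.0 CPM.

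Lefty1 (chr1:180935022-180938400, plus strand) and Lefty2 (chr1:180893108-180899103, plus strand) are protein-coding genes that lie 35918 bases apart on the mm10 assembly. Their coding sequences, 1107 bases each, were 92.0% identical over 1108 aligned columns, with a longest shared run of 140 bases. Of all windows of 76 bases in the Lefty1 transcript, 10.9% occur unchanged in Lefty2, and of windows of 100 bases 4.80% do. Reads lying wholly in such windows cannot be assigned to one of the genes, and how they were counted is not given in the sources used here, so the split of counts between Lefty1 and Lefty2 is uncertain to that extent.

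Nodal (chr10:61417972-61425338, plus strand) and Tdgf1 (chr9:110939603-110946158, minus strand) are protein-coding. Their promoters are shown as a description of sequence, and no link between these letters and the levels of the genes was tested. RefSeq sequence (GRCm38.p6) from 250 bases before to 50 bases after the start is printed 5′ to 3′ on the gene's strand. Capitals mark the 4-base SMAD element GTCT or its reverse AGAC, the FOXH1 site AATNNACA or its reverse TGTNNATT, and the octamer ATGCAAAT or its reverse ATTTGCAT.
Nodal, chr10:61417722-61418021: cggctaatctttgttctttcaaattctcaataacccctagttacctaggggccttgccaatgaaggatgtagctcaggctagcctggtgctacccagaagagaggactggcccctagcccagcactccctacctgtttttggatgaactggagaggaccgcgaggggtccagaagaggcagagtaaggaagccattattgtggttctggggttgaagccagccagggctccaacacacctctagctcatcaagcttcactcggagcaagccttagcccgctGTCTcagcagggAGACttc
Tdgf1, chr9:110946109-110946408: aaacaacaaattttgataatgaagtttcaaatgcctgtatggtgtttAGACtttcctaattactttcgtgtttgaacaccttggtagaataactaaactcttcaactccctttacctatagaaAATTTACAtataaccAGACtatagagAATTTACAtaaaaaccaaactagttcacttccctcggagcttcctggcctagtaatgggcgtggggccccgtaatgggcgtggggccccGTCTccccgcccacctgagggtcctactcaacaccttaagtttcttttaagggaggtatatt
The Tdgf1 window held 2 FOXH1 matches and 3 SMAD elements, the Nodal window 0 and 2, neither held an octamer, and none of the matches overlapped. Among 32851 promoter windows of the same length, 12.2% held a FOXH1 match, 88% a SMAD element and 1.74% an octamer, so the SMAD element sets no gene apart. A match is a description of the letters, not a binding site, and sequence outside these windows was not searched. Tdgf1 also has a processed pseudogene, Tdgf1-ps1 (chr16:3730510-3731022), whose 513 bases were 98.3% identical to the Tdgf1 coding sequence. Of 76-base windows in the Tdgf1 transcript, 8.51% occur in it, and its counts equalled a median of 7.16% of those of Tdgf1 in the rescue experiment, 6.94% in the POLE4 experiment and 22.2% in the clone experiment. The level of Tdgf1 is therefore uncertain by about the pseudogene's share, which differed between tables.

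Smad7 (chr18:75367529-75395935, plus strand) is protein-coding. Per kilobase of exon, WT#1 cultures of the rescue experiment held 169 ± 10.8 CPM per kb of Tdgf1, 40.3 ± 10.3 of Lefty1, 35.2 ± 3.31 of Nodal, 33.4 ± 1.37 of Smad7 and 21.2 ± 2.17 of Lefty2 (SD, n = 4). Tdgf1 was the most abundant by a wide margin, Lefty1, Nodal and Smad7 did not differ beyond their spread, and Lefty2 was lowest. In WT#1 of the POLE4 experiment Lefty2 stood at 31.7 ± 5.27 CPM per kb and Smad7 at 19.01 ± 2.11 (SD, n = 3), so that the order below Tdgf1 was not the same in both tables.

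In the rescue experiment the ligand and its co-receptor were higher in the MCM2-2A#2 line, and the antagonists were not. Nodal had 100.9, 117, 84.8 and 101.4 CPM in cultures 1 to 4 of MCM2-2A#2, against 74.3, 81.9, 64.9 and 74.0 CPM in WT#1. The lowest MCM2-2A#2 culture lay above the highest WT#1 culture. Averages were 101 ± 13.2 CPM in MCM2-2A#2 and 73.8 ± 6.92 CPM in WT#1 (SD, n = 4 each), a log2 fold change of 0.46 ± 0.09 (SE). Tdgf1 likewise did not overlap, with 582, 618, 569 and 536 CPM in MCM2-2A#2 and 410, 478, 446 and 438.14 CPM in WT#1, a log2 fold change of 0.38 ± 0.06 (SE). Primitive endoderm markers, summed over 6 genes of which none was at 0, moved with the line as well, at 36.2 to 53.0 CPM in MCM2-2A#2 and 13.0 to 16.3 CPM in WT#1. Primed epiblast markers, summed over 5 genes, lay at 336 to 442.3 CPM in MCM2-2A#2 and 469 to 588.2 CPM in WT#1. Dnmt3b, at 245 to 502 CPM over the rescue cultures, made up most of this sum, as in the other experiments. The part of these marker lists in the Nodal and Tdgf1 levels was not tested, and in bulk RNA fewer cells of a type and less RNA per cell cannot be told apart.

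The antagonists overlapped between the lines. Lefty1 had 51.1, 78.0, 63.5 and 60.1 CPM in MCM2-2A#2, against 64.3, 97.8, 61.3 and 59.8 CPM in WT#1, a log2 fold change of -0.16 ± 0.22 (SE). Lefty2 averaged 51.9 ± 8.60 CPM in MCM2-2A#2 and 55.4 ± 5.67 CPM in WT#1 (SD, n = 4 each), a log2 fold change of -0.10 ± 0.14 (SE). Smad7 averaged 156 ± 13.3 CPM in MCM2-2A#2 and 151 ± 6.20 CPM in WT#1 (SD, n = 4 each), a log2 fold change of 0.05 ± 0.06 (SE). Culture 2 held the highest Lefty1 of its line in all 3 lines, while Lefty2 was highest in culture 3 for MCM2-2A#2 and WT#1. Between MCM2-2A#2 and WT#1, 2 of the 5 genes did not overlap, and 19.5% of all 17041 genes tested did not.

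In the MCM2-R#2 clone, Tdgf1 stood at the level of WT#1 and Nodal between both lines. Tdgf1 had 450, 454, 431 and 505 CPM in MCM2-R#2, all below the lowest of MCM2-2A#2 (536 CPM), with a log2 fold change of -0.32 ± 0.06 (SE) over MCM2-2A#2 and 0.05 ± 0.06 (SE) over WT#1. Nodal had 87.8, 95.2, 82.4 and 93.2 CPM in MCM2-R#2. These values overlapped those of MCM2-2A#2, with a log2 fold change of -0.17 ± 0.09 (SE), and lay just above WT#1, whose highest culture had 81.9 CPM, with a log2 fold change of 0.28 ± 0.09 (SE). Primitive endoderm markers summed to 13.7 to 16.4 CPM in MCM2-R#2. Lefty1 was at 69.9, 82.9, 37.6 and 48.0 CPM and Lefty2 at 51.9, 54.9, 45.2 and 32.7 CPM in MCM2-R#2, overlapping both other lines. In the same cultures of MCM2-R#2 primed epiblast markers summed to 645.8, 651, 441.5 and 467.4 CPM and feeder fibroblast markers, 4 collagen and surface genes, to 47.0, 54.4, 169 and 142 CPM. Col1a1, at 25.1 to 145 CPM over the rescue cultures, made up most of the feeder sum. The cells were grown on gelatin, so the list's name does not mean that feeder cells were present. Cultures 1 and 2 thus had more Lefty1, more primed epiblast marker and less feeder marker RNA than cultures 3 and 4, and the part of these markers in the Lefty level was not tested. Smad7 averaged 145 ± 9.01 CPM in MCM2-R#2 (SD, n = 4) and overlapped both. Of the 5 genes, 1 did not overlap between MCM2-R#2 and MCM2-2A#2, where 14.8% of all genes did not, and 1 did not overlap between MCM2-R#2 and WT#1, where 6.04% did not. These comparisons share their lines.

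**Figure D1:**
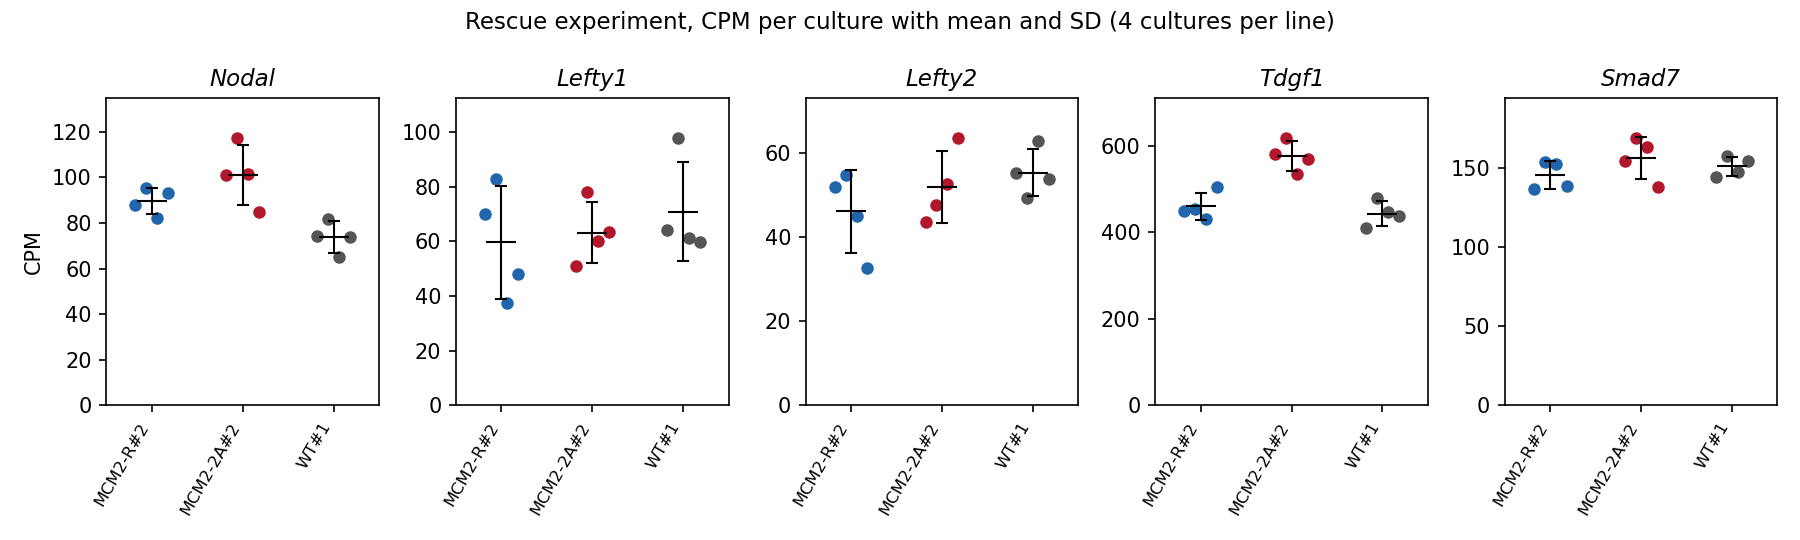
CPM of the 5 genes in the rescue experiment. Points are cultures of MCM2-R#2, MCM2-2A#2 and WT#1, and bars give the mean and SD of 4 cultures. Nodal and Tdgf1 are highest in MCM2-2A#2, with averages of 101 and 576 CPM, and the Lefty genes overlap in all lines.

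In the POLE4 experiment the antagonists were low in 1 of the 3 knockout clones. Lefty1 had 10.3, 20.2 and 7.34 CPM in POLE4-KO#2, against 61.8, 84.3 and 44.9 CPM in WT#1. Lefty2 had 8.95, 14.9 and 7.17 CPM in POLE4-KO#2, against 73.5, 98.6 and 76.1 CPM in WT#1. Every library of this clone lay far below every WT#1 library, with log2 fold changes of -2.33 ± 0.30 for Lefty1 and -2.997 ± 0.22 for Lefty2 (SE). The counts behind the POLE4-KO#2 values were 171 to 480 for Lefty1 and 167 to 355 for Lefty2.

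In the other knockout clones the Lefty pair lay near WT#1. Lefty1 was at 56.4, 81.9 and 47.6 CPM in POLE4-KO#1, a log2 fold change of -0.04 ± 0.27 (SE) over WT#1, and at 64.1, 55.4 and 50.1 CPM in POLE4-KO#3, a log2 fold change of -0.18 ± 0.27 (SE). Both ranges overlapped that of WT#1. Lefty2 was at 61.4, 93.3 and 63.6 CPM in POLE4-KO#1, overlapping WT#1, and at 64.5, 57.5 and 52.3 CPM in POLE4-KO#3, all below WT#1, with a log2 fold change of -0.51 ± 0.19 (SE). Taking POLE4-KO#2 over POLE4-KO#1 and POLE4-KO#3, the log2 fold change was -2.22 ± 0.27 for Lefty1 and -2.65 ± 0.20 for Lefty2 (SE). The low Lefty level was thus seen in 1 of 3 clones that lack POLE4. Primed epiblast markers summed to 512 to 521 CPM in POLE4-KO#2, 465 to 495 CPM in POLE4-KO#1 and 476 to 507.8 CPM in POLE4-KO#3, against 638 to 687 CPM in WT#1. Feeder fibroblast markers summed to 9.09 to 10.9 CPM in POLE4-KO#2, 5.01 to 5.35 CPM in POLE4-KO#1 and 70.2 to 88.4 CPM in POLE4-KO#3, against 78.8 to 80.0 CPM in WT#1. POLE4-KO#2 thus lay below WT#1 in both sums, but POLE4-KO#1, whose Lefty levels overlapped WT#1, lay lower still, and the part of these markers in the Lefty level was not tested.

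Nodal was not low where its antagonists were. It was at 81.2, 79.4 and 68.7 CPM in POLE4-KO#2 and at 80.0, 77.2 and 80.9 CPM in POLE4-KO#3, against 67.1, 64.5 and 57.7 CPM in WT#1, so that all libraries of both clones lay above WT#1. The log2 fold changes were 0.28 ± 0.09 for POLE4-KO#2 and 0.33 ± 0.09 for POLE4-KO#3 (SE). POLE4-KO#1, with 62.0, 74.7 and 62.1 CPM, overlapped WT#1. Tdgf1 lay on opposite sides of WT#1 in 2 clones, with 502, 476 and 531 CPM in POLE4-KO#1 and 397, 348 and 393 CPM in POLE4-KO#2, against 463, 405 and 473 CPM in WT#1. Neither clone overlapped WT#1 for Tdgf1, and the log2 fold changes were 0.17 ± 0.09 for POLE4-KO#1 and -0.24 ± 0.09 for POLE4-KO#2 (SE). Smad7 was below WT#1 in POLE4-KO#2 alone, at 74.1, 72.7 and 62.6 CPM against 96.9, 79.3 and 81.6 CPM in WT#1, a log2 fold change of -0.30 ± 0.10 (SE).

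Of the 5 genes, 5 did not overlap between POLE4-KO#2 and WT#1, 1 did not for POLE4-KO#1 and 2 did not for POLE4-KO#3. Among all 16790 genes tested, 41.5% did not overlap for POLE4-KO#2, 40.5% for POLE4-KO#1 and 34.1% for POLE4-KO#3. The counts for POLE4-KO#1 and POLE4-KO#3 were thus near the share of all genes. The 3 comparisons share the WT#1 libraries.

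**Figure D2:**
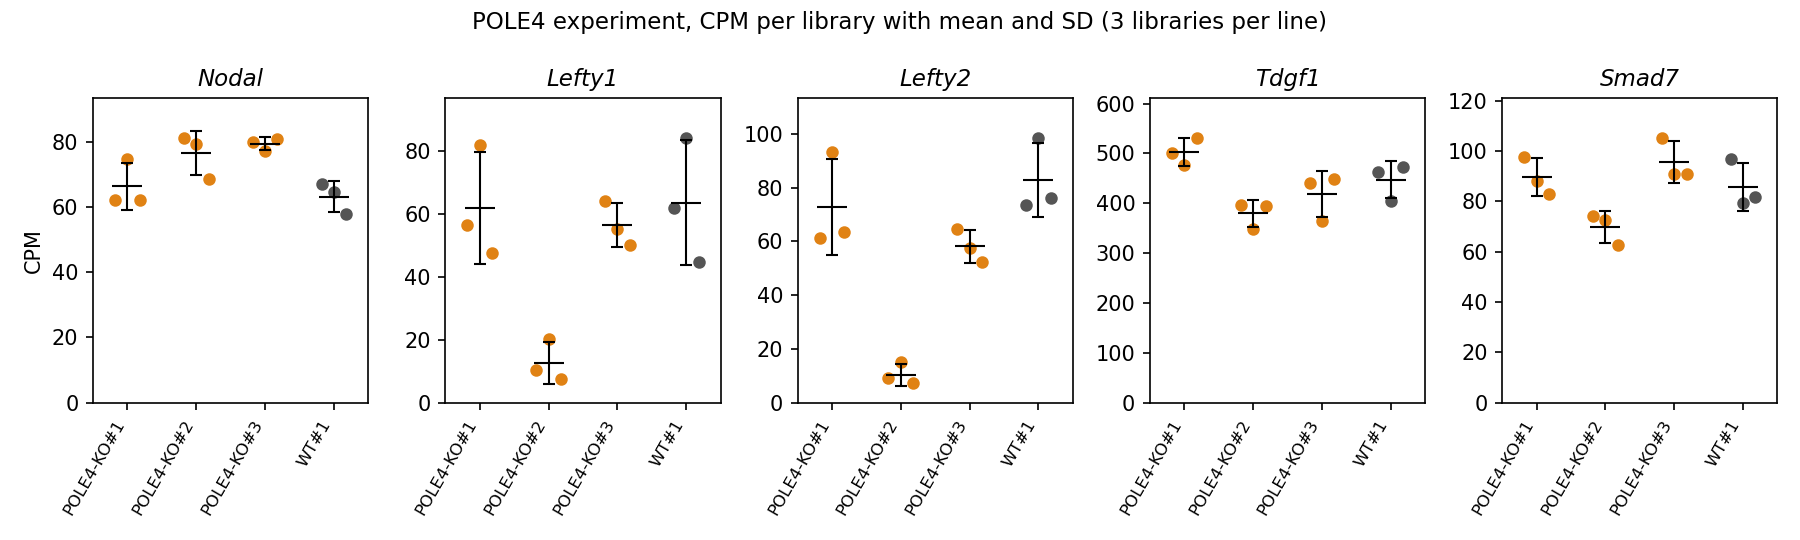
CPM of the 5 genes in the POLE4 experiment. Points are libraries of POLE4-KO#1, POLE4-KO#2, POLE4-KO#3 and WT#1, and bars give the mean and SD of 3 libraries. Lefty1 averages 12.6 CPM and Lefty2 10.3 CPM in POLE4-KO#2, while the other lines average 56.5 to 63.6 CPM for Lefty1 and 58.1 to 82.7 CPM for Lefty2.

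In the clone experiment the Lefty pair split the clones, and the split did not follow the MCM2 genotype. Lefty1 averaged 47.3 to 53.5 CPM over the libraries of MCM2-2A#1, MCM2-2A#2 and MCM2-2A#5 and 45.1 to 53.8 CPM over those of WT#1 and WT#4. It averaged 9.64 to 13.1 CPM in MCM2-2A#3, MCM2-2A#4, MCM2-2A#6 and MCM2-2A#7 and 6.27 to 21.3 CPM in WT#2, WT#3, WT#6, WT#7 and WT#8. MCM2-2A#8, at 28.9 ± 1.25 CPM (SD, 2 libraries), lay between. Lefty2 averaged 37.5 to 56.2 CPM in the same high MCM2-2A clones and 44.1 to 48.4 CPM in WT#1 and WT#4, and here MCM2-2A#8, at 40.5 ± 1.08 CPM (SD, 2 libraries), lay among the high clones. In the low clones Lefty2 averaged 7.21 to 9.36 CPM for MCM2-2A and 3.84 to 18.4 CPM for WT. Low and high clones thus occurred in both genotypes. Feeder fibroblast markers split the clones in much the same way, with sums of 46.6 to 85.9 CPM in MCM2-2A#1, MCM2-2A#2 and MCM2-2A#5 and 52.5 to 80.7 CPM in WT#1 and WT#4. In the low clones they summed to 6.72 to 9.92 CPM for MCM2-2A and 3.97 to 20.0 CPM for WT, and in MCM2-2A#8 to 9.12 CPM. Of these marker genes Col1a1 ranged widest, from 0.74 to 67.4 CPM over units. Col1a2, Col3a1 and Thy1 reached at most 3.81, 8.53 and 8.35 CPM. The cells were grown on gelatin, and the part of these markers in the Lefty levels was not tested.

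With libraries summed per clone and batch there were 9 MCM2-2A units and 8 WT units, since MCM2-2A#1 and WT#1 were each sequenced in 2 batches. Lefty1 ran from 9.54 over a median of 28.7 to 53.6 CPM in MCM2-2A units and from 6.38 over 20.0 to 53.7 CPM in WT units. Lefty2 ran from 7.13 over 36.4 to 56.5 CPM in MCM2-2A units and from 3.88 over 15.1 to 48.4 CPM in WT units. The ranges overlapped almost wholly, and the log2 fold changes of MCM2-2A over WT with batch as a term were -0.23 ± 0.47 for Lefty1 and -0.01 ± 0.59 for Lefty2 (SE). The medians lay the other way, higher in MCM2-2A. They include the January units, which have no WT unit in their batch and so do not inform the fold changes. This holds for every gene in this comparison. From the lowest to the highest unit Lefty1 differed 8.41-fold and Lefty2 14.6-fold, while Nodal differed 2.06-fold, Tdgf1 1.74-fold and Smad7 1.56-fold. The clone MCM2-2A#1 had much the same Lefty1 level in both of its batches, with 53.5 ± 1.82 CPM in January and 49.3 ± 4.47 CPM in March (SD, n = 3 each).

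Within a clone, single libraries differed too. The third March library of WT#1 stood apart, with 72.8 CPM of Lefty1, 82.0 CPM of Lefty2 and 472 CPM of Tdgf1, against 32.4 to 35.9, 24.6 to 27.3 and 311 to 340 CPM in the other March libraries. The last library of MCM2-2A#1 in each batch was also the highest for Lefty2, at 78.0 CPM in January and 79.7 CPM in March, against 41.7 to 47.6 CPM in the rest. MCM2-2A#3 showed the same order at a lower level, with 10.5 CPM in its library 3 and 5.30 to 5.82 CPM in the others. Without the third March library of WT#1, an alternative added after these values were seen, the log2 fold change of MCM2-2A over WT was -0.14 for Lefty1 and 0.14 for Lefty2. Without the last March library of each of the 3 clones of that batch, likewise added later, it was -0.16 for Lefty1 and 0.08 for Lefty2.

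Nodal, unlike its antagonists, averaged more in MCM2-2A than in WT clones by over 1 SE. Nodal averaged 66.5 ± 5.81 CPM over 9 MCM2-2A units and 54.8 ± 7.66 CPM over 8 WT units (SD), a log2 fold change of 0.24 ± 0.09 (SE). MCM2-2A#2 and MCM2-2A#5 were highest, with 78.2 and 73.2 CPM, and WT#6 was lowest with 38.0 CPM. Of the MCM2-2A units, 6 of 9 exceeded the highest WT unit, and 7 of 8 WT units lay below the lowest MCM2-2A unit, but the groups overlapped. MCM2-2A#1 and WT#1 entered these counts, the SD and the fit once per batch, as if separate clones. Both units of MCM2-2A#1 exceeded the highest WT unit. In the August batch alone Nodal ran from 62.2 to 73.2 CPM in MCM2-2A and from 38.0 to 62.4 CPM in WT, and in March from 60.6 to 67.7 CPM in MCM2-2A and was 56.7 CPM in the 1 WT unit. The January libraries used were of MCM2-2A clones only, since the wild-type clone of that batch, WT#5, was not used. With batch as a term, the log2 fold change therefore rests on the March and August units. The averages and counts of units also include the January units, so they do not cover the same samples. Primitive endoderm markers summed to 12.04 to 30.3 CPM in MCM2-2A units and 7.21 to 14.4 CPM in WT units, and primed epiblast markers to 250 to 455 CPM in MCM2-2A units and 373 to 577 CPM in WT units, and their part in the Nodal level was not tested.

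Tdgf1 ranged from 298 to 471 CPM in MCM2-2A units and from 270 to 428 CPM in WT units, a log2 fold change of 0.11 ± 0.13 (SE). Its highest units, MCM2-2A#8, MCM2-2A#2 and MCM2-2A#5, were all among the clones with high or intermediate Lefty. Smad7 averaged 74.8 ± 10.2 CPM over MCM2-2A units and 74.6 ± 7.18 CPM over WT units (SD), a log2 fold change of 0.00 ± 0.09 (SE). None of the 5 genes separated the genotypes, and 1.08% of all 23215 genes tested did.

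**Figure D3:**
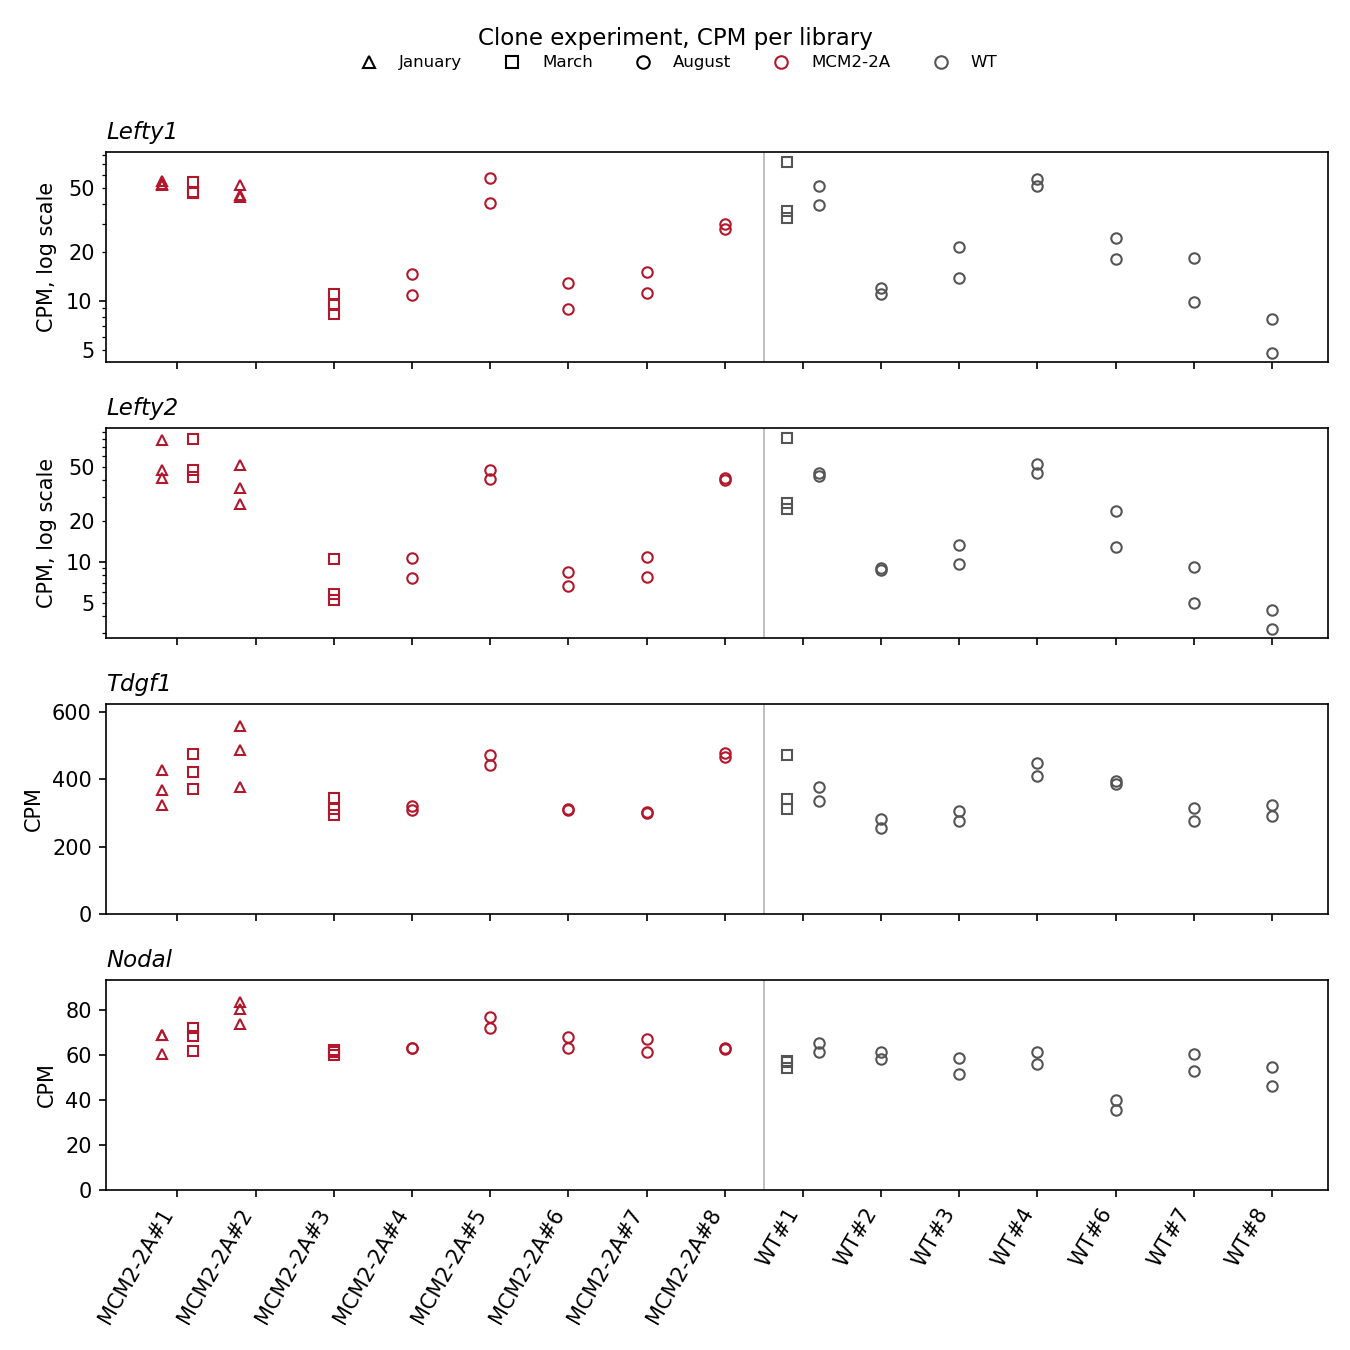
CPM of Lefty1, Lefty2 (log scale), Tdgf1 and Nodal in each library of the clone experiment, MCM2-2A clones left and WT clones right of the line. Symbols give the batch. The Lefty genes fall into low and high clones within both genotypes, with clone averages from 6.27 to 53.8 CPM for Lefty1, and Nodal spreads less.

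Over 24 units of all tables (a line in an experiment or batch, each centred on the mean of its experiment or batch), Lefty1 and Lefty2 moved together, with Pearson r = 0.98 and Spearman rho = 0.98 for log2 CPM. Each was the gene most like the other among all genes ranked. This likeness includes the reads they may share. Tdgf1 followed the pair less closely (r = 0.71 with Lefty1 and 0.76 with Lefty2), as did Smad7 (r = 0.74 and 0.83). Nodal did not follow the Lefty genes, with r = 0.07 for each, and its r with Tdgf1 was 0.13. These are descriptions over units that share lines, and WT#1 enters more than once. Nodal and Tdgf1 were both higher in MCM2-2A#2 than in WT#1, but across all lines their levels were nearly unrelated.

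The genes outside the list most like a member were named by the highest Pearson r among genes of at least 1 CPM in each table. For Lefty1 they were Nfatc4 (r = 0.95), Mrc2 (r = 0.93) and 1700123O20Rik (r = 0.93), and for Lefty2 Ifi30 (r = 0.96), Nfatc4 (r = 0.95) and Khnyn (r = 0.95). For Tdgf1 they were its pseudogene Tdgf1-ps1 (r = 0.95), Chd8 (r = 0.92) and Esco2 (r = 0.92), and for Smad7 Fdft1 (r = 0.92), Tgm1 (r = 0.91) and Mpzl2 (r = 0.90). Nodal was most like Fbp2 (r = 0.92), Usp17lc (r = 0.91) and P4ha2 (r = 0.89). Of these 15 entries 8 were on chromosome 14, which carries none of the 5 genes, and 3.39% of the genes ranked lie there. All 8 belonged to Lefty1, Lefty2, Tdgf1 or Smad7 and none to Nodal.

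The level of chromosome 14 was therefore set beside that of the Lefty pair, a look chosen after the likeness values were seen. For each unit the median over the chromosome 14 genes (555 in the clone table, 465 in the rescue table and 462 in the POLE4 table) was taken on the log2 scale, each gene centred on its mean in the table. Each unit was then also centred on its median over all genes that averaged at least 1 CPM in the table. The value is thus relative to the other genes of the same unit. It ranged from -0.20 to 0.18 over the 17 clone units, wider than any other chromosome, the next being chromosome 1 with a range of 0.20. In the 9 units with a median above 0, which were 5 MCM2-2A and 4 WT units, Lefty1 and Lefty2 together came to 39.8 to 109 CPM, and in the 8 units below 0, 4 of each genotype, to 10.3 to 30.5 CPM. WT#6 gave the lowest of the first group although its chromosome 14 median was the highest of all, and without it that group began at 69.2 CPM. Pearson r with the chromosome 14 median over the 17 units was 0.87 for Lefty1, 0.90 for Lefty2, 0.83 for Tdgf1, 0.77 for Smad7 and 0.06 for Nodal. For the mean log2 CPM of the Lefty pair Pearson r was 0.89, but Spearman rho was lower, at 0.73.

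In the POLE4 experiment the same measure was -0.31 to -0.26 in POLE4-KO#2, 0.21 to 0.22 in POLE4-KO#1 and 0.05 to 0.06 in POLE4-KO#3, against 0.03 to 0.04 in WT#1. The clone with low Lefty was the clone with low chromosome 14 expression. The lines of this experiment, POLE4-KO#2 among them, were part of the units whose likeness values led to chromosome 14. This is therefore not an independent second look. The higher median of POLE4-KO#1 came with a Lefty sum of 111 to 175 CPM, which overlapped the 121 to 183 CPM of WT#1. Over the 12 libraries the mean log2 CPM of the Lefty pair had a Pearson r of 0.89 with the chromosome 14 median, but a Spearman rho of 0.37. In the rescue experiment the medians lay within -0.02 to 0.02 in every culture. Whether the level of chromosome 14 plays a part in that of the Lefty genes was not tested.

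**Figure D4:**
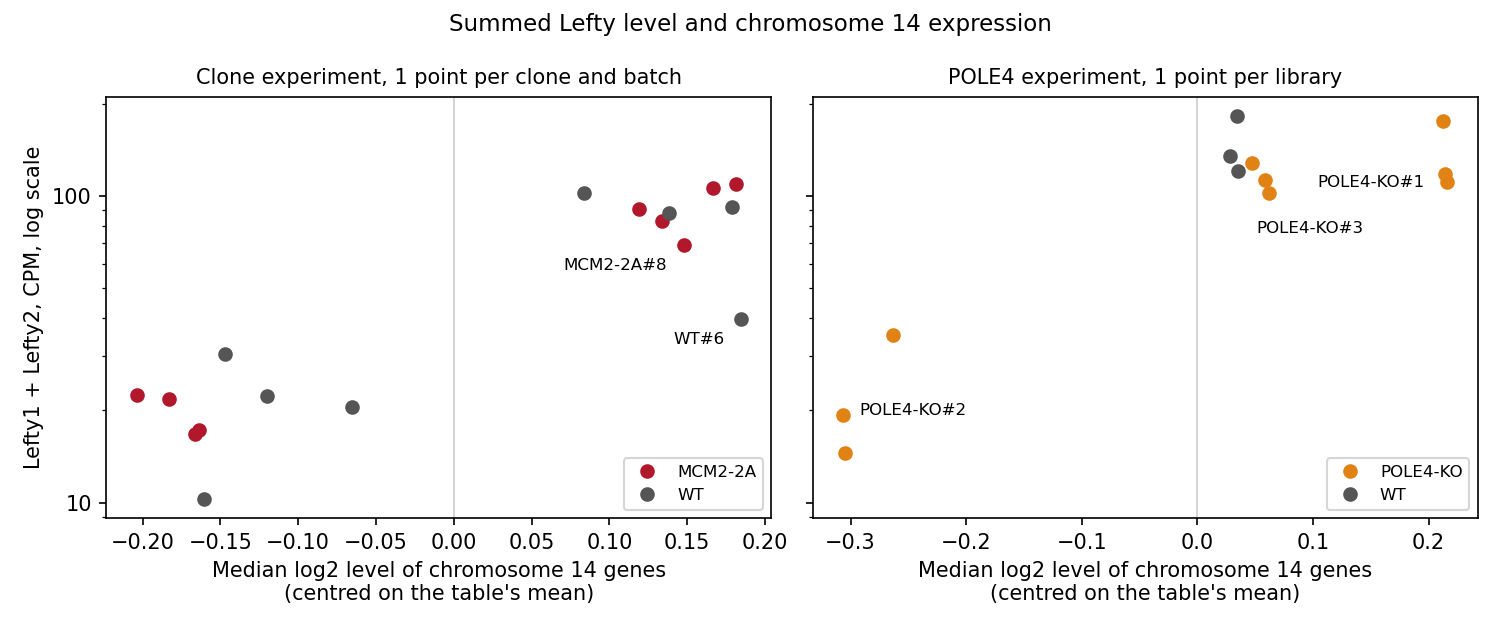
Summed CPM of Lefty1 and Lefty2 (log scale) against the median log2 level of chromosome 14 genes, per clone and batch in the clone experiment and per library in the POLE4 experiment. The chromosome 14 level is also centred on the median over all genes kept in the same unit or library. Units below 0 have 10.3 to 30.5 CPM in the clone experiment, and WT#6 lies low at a high median. POLE4-KO#2 stands apart from all other lines of its table.

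Genes beside the Lefty pair on chromosome 1 were looked at next. In POLE4-KO#2 the median log2 fold change over WT#1 of the 23 tested genes within 1 Mb of Lefty1 was -0.04, near 0. By edgeR's quasi-likelihood test with Benjamini-Hochberg adjustment (a call is an adjusted p below 0.01 and a log2 fold change beyond 0.58 in size), 5 of these 23 were called, against 11.6% of all genes in that comparison. One of them, named here after its values were seen, was Tmem63a (chr1:180942344-180975112), which follows Lefty1. It had 5.15 ± 1.88 CPM in POLE4-KO#2 and 10.9 ± 2.94 CPM in WT#1 (SD, n = 3 each), a log2 fold change of -1.08 with adjusted p = 0.0025 by edgeR. It was not called in POLE4-KO#1 or POLE4-KO#3. Over the 17 clone units the mean log2 CPM of the Lefty pair had a Pearson r of 0.79 with Tmem63a. Tmem63a lies on the plus strand, as do Lefty1 and Lefty2. Within 1 Mb of Nodal, Tdgf1 and Smad7 the medians for MCM2-2A#2 over WT#1 were 0.06, 0.05 and 0.13. The medians around Nodal and Tdgf1 were below the log2 fold changes of these genes, but single neighbours varied. They ran from -0.63 to 0.67 around Nodal and from -0.90 to 1.40 around Tdgf1. Of these, 1 of 25 and 0 of 31 were called, against 2.76% of all genes.

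The other genes of the pathway were taken from 6 lists of 60 genes sorted by role, and these were tested. In MCM2-2A#2 over WT#1, 1 of 55 tested genes was called higher and 1 lower, while 2.76% of all genes were called. Tgfbr3, a co-receptor that presents TGF-beta ligands, had 5.05 ± 0.55 CPM in MCM2-2A#2 and 3.25 ± 0.45 CPM in WT#1 (SD, n = 4 each), a log2 fold change of 0.65 with adjusted p = 0.0059 by edgeR. Smad6, the inhibitory Smad of the BMP arm, fell to 4.67 ± 0.57 CPM in MCM2-2A#2, against 7.36 ± 0.75 CPM in WT#1 (SD, n = 4 each), a log2 fold change of -0.67 with adjusted p = 0.0065 by edgeR. Both calls were close to the threshold, and 0 genes were called by edgeR without WT#1 culture 1, 3 or 4 or MCM2-2A#2 culture 1 or 2, and 1 without MCM2-2A#2 culture 4. With no fold limit and an adjusted p below 0.05, edgeR called 9 genes and the unadjusted p was under 0.05 for 17. The 7 streak and endoderm targets gave no call among 5 tested, and T, the streak regulator Brachyury, varied strongly between cultures, with a log2 fold change of -1.44 ± 0.67 (SE).

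In MCM2-R#2 over MCM2-2A#2, 1 of 55 was called, with a background of 1.36%. This was Id2, a target of BMP signalling that inhibits helix-loop-helix factors, with 27.2 ± 3.54 CPM in MCM2-R#2 and 14.03 ± 5.13 CPM in MCM2-2A#2 (SD, n = 4 each), a log2 fold change of 0.96 with adjusted p = 0.0094 by edgeR. The call was lost without MCM2-2A#2 culture 1 or 2 or MCM2-R#2 culture 1, 2 or 3. In MCM2-R#2 over WT#1 edgeR called 0 of 55 and DESeq2 0, with 3 at an unadjusted p under 0.05 and a background of 0.299%. In MCM2-2A over WT clones edgeR called 0 of 57 and DESeq2 1, with 14 at an unadjusted p under 0.05 and a background of 0.616%. The median over the lists was -0.18 on the log2 scale there and -0.02 over all genes.

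The knockout clones gave more calls. In POLE4-KO#1 over WT#1, 2 of 53 tested pathway genes were called higher and 16 lower, against 11.6% of all genes called in either direction. In POLE4-KO#2 the numbers were 2 higher and 10 lower, again with 11.6% of all genes, and in POLE4-KO#3 1 higher and 2 lower, with 3.01% of all genes. The share among pathway genes was above that of all genes in each clone, though in POLE4-KO#3 it rested on few genes. No test of the lists was made.

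Of the streak and endoderm targets T, Mixl1 and Eomes, 3 of 3 were called lower in POLE4-KO#1, 2 of 3 in POLE4-KO#2 and 1 of 3 in POLE4-KO#3. T was at 0.39 ± 0.04 CPM in POLE4-KO#1, 5.91 ± 1.71 CPM in POLE4-KO#2 and 5.39 ± 0.43 CPM in POLE4-KO#3, against 16.8 ± 1.78 CPM in WT#1 (SD, n = 3 each). All 3 were called by edgeR, with log2 fold changes of -5.41, -1.50 and -1.64 and adjusted p = 1.5e-10, 5.0e-06 and 1.3e-05. Mixl1 and Eomes, regulators of mesendoderm, were called lower in POLE4-KO#1, at -2.90 and -1.33 on the log2 scale (edgeR, adjusted p = 1.6e-05 and 2.6e-05). In POLE4-KO#2 Mixl1 was called at -1.50 (edgeR, adjusted p = 0.0014) and Eomes was not, at -0.57 ± 0.16 (SE). In POLE4-KO#3 Mixl1 was at -0.87 ± 0.29 and Eomes at 0.13 ± 0.16 (SE), without a call. All of T, Mixl1 and Eomes had their lowest average in POLE4-KO#1, where Lefty1 and Lefty2 overlapped WT#1, and not in POLE4-KO#2, where the Lefty pair was low.

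Among ligands and convertases, Furin, a protease that cleaves the Nodal precursor, was called lower in POLE4-KO#1 (log2 fold change -0.93) and POLE4-KO#2 (-1.10), with adjusted p = 1.2e-06 and 3.4e-07 by edgeR. Inhbb, which encodes the beta-B subunit of Activin, was called higher in both, at 50.7 ± 6.02 CPM in POLE4-KO#1 and 21.7 ± 1.00 CPM in POLE4-KO#2, against 13.9 ± 2.34 CPM in WT#1 (SD, n = 3 each). The edgeR adjusted p-values were 9.4e-09 and 0.00089. Tgfb2 was called lower in both as well, at -4.37 and -1.74 on the log2 scale (edgeR, adjusted p = 2.1e-09 and 3.9e-06), Gdf1 and Tgfb1 in POLE4-KO#2, at -2.39 and -0.77 (edgeR, adjusted p = 4.6e-07 and 0.0017), and Inhba in POLE4-KO#1, where it lay at 0.03 CPM and in WT#1 at 0.58 CPM (edgeR, adjusted p = 0.00049).

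Of the receptors, Tgfbr2 was called lower in POLE4-KO#1 and POLE4-KO#2, at -0.98 and -1.20 (edgeR, adjusted p = 0.0058 and 0.0015). Tgfbr3 was called lower in POLE4-KO#1 at -0.88 and higher in POLE4-KO#3 at 1.01 (edgeR, adjusted p = 0.0022 and 0.00097). Smad3, a transducer of the Nodal signal, was called higher in POLE4-KO#2, at 20.3 ± 0.91 CPM against 13.0 ± 0.42 CPM in WT#1 (SD, n = 3 each), with a log2 fold change of 0.64 and adjusted p = 0.00015 by edgeR. Among inhibitors Fst, which binds and blocks Activin, and its relative Fstl3 were called lower in POLE4-KO#1, at -1.78 and -1.04 (edgeR, adjusted p = 1.4e-07 and 0.0078).

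In the BMP arm, Id3 and the BMP antagonist Nog were called lower in POLE4-KO#1 (-1.19 and -2.40) and in POLE4-KO#2 (-0.87 and -1.60), with edgeR adjusted p = 5.6e-05 and 1.2e-05 in the first clone and 0.00091 and 0.00028 in the second. Bmp4 was called higher in POLE4-KO#1, at 64.6 ± 3.94 CPM against 24.6 ± 1.42 CPM in WT#1 (SD, n = 3 each), with adjusted p = 6.4e-09 by edgeR. Bmp2, Bmp7 and Smad9, all below 1 CPM in POLE4-KO#1, were called lower there (-2.19, -1.54 and -1.99; edgeR, adjusted p = 0.0041, 0.00082 and 0.0097). The feeder fibroblast markers were low in the same 2 clones, as given above, and their part in these calls was not tested.

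**Figure D5:**
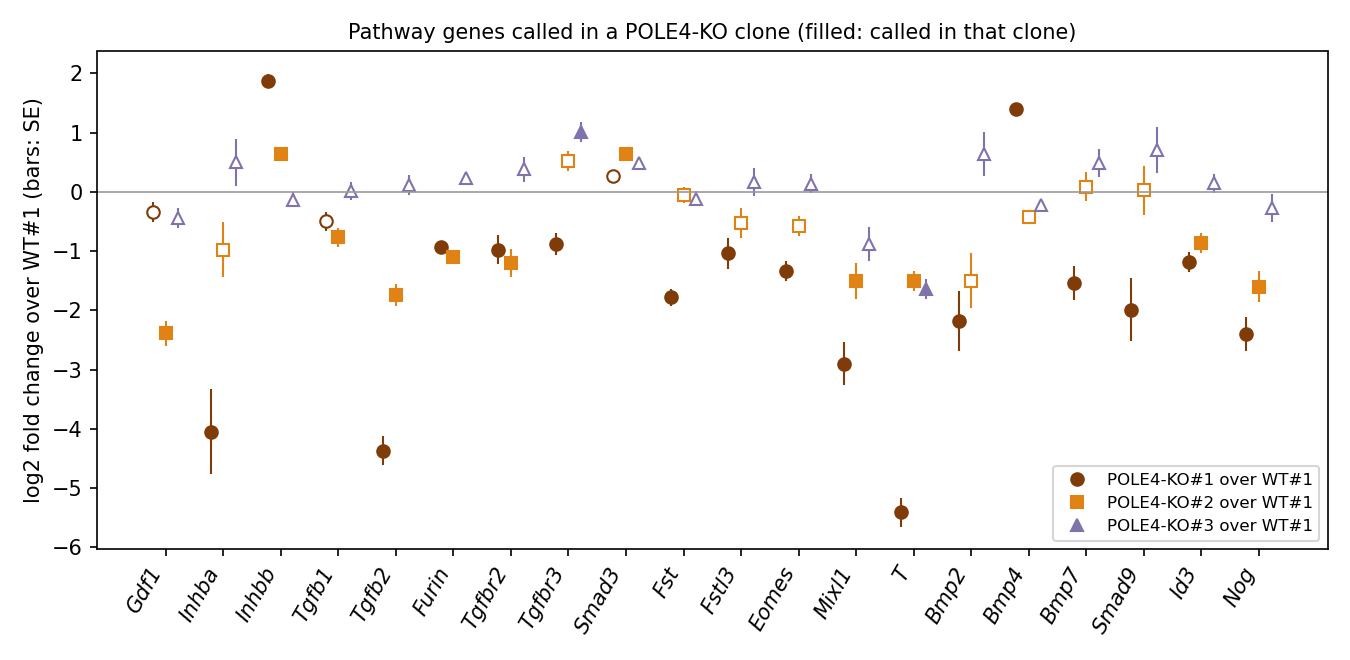
Log2 fold change over WT#1 (bars give the SE) of 20 pathway genes called in at least 1 POLE4-KO clone. Filled symbols mark a call in that clone. T is called in all 3 clones and reaches -5.41 in POLE4-KO#1.

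The core machinery was present, and the genes named next were called in no comparison. In WT#1 cultures of the rescue experiment the transducers Smad2 and Smad4 had 66.2 ± 2.54 and 67.6 ± 3.50 CPM and Trim33, a regulator of Smad4, 106 ± 3.90 CPM (SD, n = 4). The receptors Acvr1b, Acvr2b and Tgfbr1 had 34.0 ± 1.88, 36.1 ± 3.12 and 32.1 ± 2.45 CPM, the ligand Gdf3 74.6 ± 4.91 CPM and the convertase Pcsk6 48.0 ± 3.41 CPM (SD, n = 4). The corepressors Skil, Tgif1 and Ski had 242 ± 29.0, 126 ± 3.46 and 123 ± 9.90 CPM, and the BMP components Bmpr1a, Smad5 and Id1 68.9 ± 3.89, 35.5 ± 2.24 and 34.7 ± 6.32 CPM (SD, n = 4). With an adjusted p below 0.01 but under the fold limit by edgeR, Gdf3 averaged 59.4 ± 3.47 CPM in MCM2-2A#2 (SD, n = 4; log2 fold change over WT#1 -0.33, adjusted p = 0.0018) and Pcsk6 61.7 ± 6.27 CPM (0.36, adjusted p = 0.0080). Pcsk6 also just missed the limit in POLE4-KO#2, with a log2 fold change of 0.58 (edgeR, adjusted p = 0.0011). The ligand Tgfb3 and the streak and endoderm targets Lhx1, Foxa2 and Gsc were near the floor, at 0.44 ± 0.11, 0.25 ± 0.17, 0.23 ± 0.11 and 0.19 ± 0.11 CPM in WT#1 cultures (SD, n = 4). Cer1, a secreted Nodal antagonist, and the receptor Acvr1c passed the filter on low counts in no table.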

How the data were processed

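RNA of the ESC lines was depleted of ribosomal RNA and sequenced as strand-specific, paired-end libraries, with read lengths that differed by sequencer. Reads were trimmed by the authors (Trimmomatic 0.39) and mapped to mm10 (STAR 2.7.1a). The submitters' processing notes also name featureCounts and DESeq2. The deposited values are raw read counts for 55335 gene rows and 1146 repeat rows, of which 55154 gene rows had a symbol. A set of 3 columns that match no sample label and the clone WT#5 were not used here. Totals were 18369196 to 67467849 counts per library, and the counts of each member were at least 167 per culture, POLE4 library or clone and batch.

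Runs were summed per culture in the rescue table, and libraries per clone and batch in the clone table, with batches taken from the study's sample table. TMM factors came from gene rows. Rows passing filterByExpr (minimum count 10, minimum total 15) were fitted with quasi-likelihood models in edgeR 4.0.16 (limma 3.58.1, R 4.3.3), with line as the factor in the rescue and POLE4 tables and genotype plus batch in the clone table. Genes were adjusted over all genes tested (Benjamini-Hochberg), and a call required an adjusted p below 0.01 and a log2 fold change beyond 0.58 in size. The fit was tested on simulated data. Members and lists were chosen with earlier results of these data known. Named were the members, called genes of the lists, the 3 most abundant uncalled genes per list and the 3 genes most like each member. Some called genes, which are counted in the totals, and some sequences are not reported here. The paper calls the libraries of a clone in the POLE4 and clone tables biological replicates, without saying how they were cultured apart. The p-values measure only the spread between these samples.

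The MCM2-R#2 columns were matched by the experiment's name and the study's sample table. Same-numbered samples deviated together (r above 0.1) in 5 of 12 pairs of rescue cultures, taken as unpaired. They did so in 9 of 9 pairs of POLE4-KO libraries, where the WT#1 columns carry other numbers. The main POLE4 fit had no term for these pairs, so its errors do not allow for them. A replicate block among the knockout clones was run only as an alternative. In the clone table the March libraries of WT#1 and MCM2-2A#3 share label numbers and deviated together in 3 of 3 pairs, but libraries were summed per clone there. Positions are from GENCODE vM21. Alternatives were DESeq2 1.42.0, library totals, other filters and thresholds, single runs or libraries, single batches, a replicate block, and leaving out each replicate or clone.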

Additional observations from a re-analysis of the deposited data

Results flagged for a closer look

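Lefty1 in WT#1 culture 2 of the rescue experiment, at 97.8 CPM, stood apart from the other WT#1 cultures, the nearest of which had 64.3 CPM. Of 25 groups examined in this way 1 stood out, and chance gives about 1 in 20. Lefty1 was also the highest of its line in culture 2 of MCM2-R#2 and MCM2-2A#2.

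Tdgf1 lay above WT#1 in every library of POLE4-KO#1, with a log2 fold change of 0.17, and below it in every library of POLE4-KO#2, with a log2 fold change of -0.24. The difference between these clones was not tested.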

How the results depend on the processing

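The direction of Nodal and Tdgf1 in MCM2-2A#2 over WT#1, and of Lefty1 and Lefty2 in POLE4-KO#2 over WT#1, was the same under each alternative run. Leaving out single samples gave 0.38 to 0.53 for Nodal, 0.34 to 0.42 for Tdgf1, -2.86 to -2.06 for Lefty1 and -3.36 to -2.79 for Lefty2 on the log2 scale. Lefty1 and Lefty2 in MCM2-2A over WT clones had no stable sign, at -0.71 to 0.10 and -0.53 to 0.41 over 13 alternatives each. Nodal in that comparison was positive under all 13, at 0.18 to 0.30, while Smad7 was at -0.17 in March alone.

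The number of pathway genes called depended on the settings. For MCM2-R#2 over MCM2-2A#2 it was 2 with DESeq2, 0 with library totals, 5 with no filter, 0 with a minimum count of 50 and 8 with an adjusted p below 0.05 and no fold limit. For MCM2-2A#2 over WT#1 it was 6 with no filter, 1 with the first run only and 9 with no fold limit. For MCM2-2A over WT clones it was 1 with DESeq2, 1 with single libraries and 4 with no fold limit, and for POLE4-KO#2 over WT#1 24 with no fold limit. Without single samples or clones it was 0 to 2 for MCM2-2A#2 over WT#1, 0 to 2 for MCM2-R#2 over MCM2-2A#2 and 0 to 1 for the clones. The causes were not tested.

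With the replicate block, MCM2-2A#2 over WT#1 gave 0.45 for Nodal, 0.38 for Tdgf1, -0.14 for Lefty1 and 3 pathway genes called, and POLE4-KO#2 over the other knockout clones gave -2.26 for Lefty1, -2.66 for Lefty2 and 6 pathway genes called. Between the March libraries of MCM2-2A#3 and WT#1 alone, a fit added after the data were seen, the block moved Lefty1 to -2.21, against -2.29 without it, and Lefty2 to -2.49, against -2.63 without it. It changed no other count of calls by over 1.5 times. The genes most like Smad7 shared 0 of 3 with those over clone units alone. Depth limits the pathway genes under 1 CPM more than the 5 members.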
